A study of Mus musculus with 159 samples.

Results

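Of the 607 genes in the table, 62 were at least 1 higher on the log2 scale in Des+ segments than in Else segments and were not among the collagens and other matrix and marker genes that the rule leaves out by name. Des+ segments are areas of mouse liver sections with the stellate cell protein DESMIN, and Else segments are the tissue around them. In each of 4 livers the values of all Des+ and of all Else segments were averaged, log2 was taken after adding 1, and genes with a mean difference of at least 1 over the livers were kept. At this threshold 95 of the 607 genes (15.7%) qualified, and 33 of them were left out by name, among them collagen chains, Dcn, Lum, Bgn, Lrat, Reln, Ecm1, Rgs5 and Mmp2. The genes were thus chosen by their Des+ minus Else difference, which is given below as a description, with no test.

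Described as genes enriched in stellate segments beyond the known markers, the group met that description only in part. Of the 62 genes, 6 stood on a list of hepatic stellate cell markers (Sod3, Hand2, Cygb, Vipr1, Tcf21 and Lhx2). Of that list, 16 of 18 genes were in the table, 16 were higher in Des+ than in Else segments and 12 by at least 1. Summed over the list, their level was 587 to 738 Q3-normalized units in the Des+ segments of the 4 livers and 129 to 164 in the Else segments. Desmin itself, whose protein was used to draw the Des+ segments, differed by 0.36 ± 0.28 (SD, n = 4 livers), with a median of 2 counts in a Des+ segment. The study had cut the table to genes it regarded as stellate cell genes, so a high share of such genes among the 62 was built in. Lists of hepatocyte, endothelial, cholangiocyte, lymphocyte and mesothelial genes had 0 members in the table, so those lists give no level for such cells in the segments. Of the lists for smooth muscle, portal fibroblasts and macrophages, the table held Tagln, Dpt with 1 further gene, and Marco. Genes outside these lists can also be expressed by such cells, such as Plvap of the endothelium, which is among the 62, and the contractile genes Mylk, Tpm1 and Tpm2, which are not.

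The livers came from wild-type C57BL/6 mice, male and female, 8 weeks old at the start, and in the methods every mouse of this experiment received carbon tetrachloride (CCl4), a hepatotoxin, by intraperitoneal injection 2 times a week for 6 weeks. The methods also give 2 mice an intravenous transfer of sorted MARCO+ bone marrow-derived macrophages at 3 and 5 weeks and the other 2 mice saline. The labels call livers 1 and 3 treated CCl4 (disease: fibrosis) and livers 2 and 4 control (disease: healthy), which does not name the transfer, so neither pair was assigned to it. Sections were stained for DESMIN, MARCO and IBA1, regions of interest (ROIs) rich or poor in MARCO signal (MarcoHi, MarcoLo) were chosen, and each was divided into Des+ segments (DESMIN only, 41 in all, 25 in MarcoHi and 16 in MarcoLo ROIs), Marco+IBA+ segments (45), Marco-IBA+ segments (24) and Else segments (49), the last negative for all 3 proteins. Livers 1 to 4 had 6, 6, 7 and 6 Des+ segments in MarcoHi and 6, 3, 4 and 3 in MarcoLo ROIs. An ROI of liver 4 has no class in its library name and was placed in MarcoLo from its sample titles. It holds 1 of the 3 Des+ MarcoLo segments of that liver. The segments of 1 liver share an animal, so n is the number of livers, 4, or 2 within a label pair. Descriptions over single segments are named as such. A mixed model among the alternatives also takes single segments, with a level for each liver. Its p-values thus count segments of 1 liver as replicates of the ROI contrast.

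Hepatic stellate cells are the vitamin A-storing pericytes of the liver sinusoid. In injury they turn into contractile myofibroblast-like cells, lay down fibrillar matrix and release growth factors that act on hepatocytes and on the endothelium. Desmin filaments also occur in vascular smooth muscle, and the staining of a thin section selects an area, not isolated cells. Fewer stellate cells in a segment and less RNA per cell cannot be told apart in these values.

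Depth differed strongly between the segment types. Values were normalized to the third quartile (Q3), which put the 75th percentile at 26.074 throughout, and whole counts could be recovered from them. The totals ran from 1448 to 16715 counts in Des+ segments and from 75571 to 448875 in Else segments. No gene had a count below 1 in any Des+ segment, and a median of 14.3% of the genes stood at that floor there, where 1 count was worth a median of 3.73 Q3-normalized units. In Else segments the lowest count of a segment was between 12 and 109. Over the 62 genes, the median count in a Des+ segment lay between 2 and 62 (median 4), below 5 for 32 genes and at 10 or more for 9 (Igfbp7, Igfbp3, App, Sparc, Tmsb10, Prelp, Pam, Ltbp4 and Sod3).

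All 62 genes were higher in Des+ than in Else segments in each of the 4 livers, with a median difference of 1.31 against 0.08 over the 607 genes. The liver means of Des+ segments lay above all those of Else segments for each of the 62, as they did for 33.9% of the 607 genes. The difference reached 1 in all 4 livers for 29 genes, in 3 livers for 20, in 2 for 11 and in only 1 liver for Epb41l2 and Lhx2. Just inside the threshold stood Timp2 (1.01) and Lhx2 (1.01), and just outside it Chst15 (0.995) and Lamc1 (0.975).

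**Figure D1:**
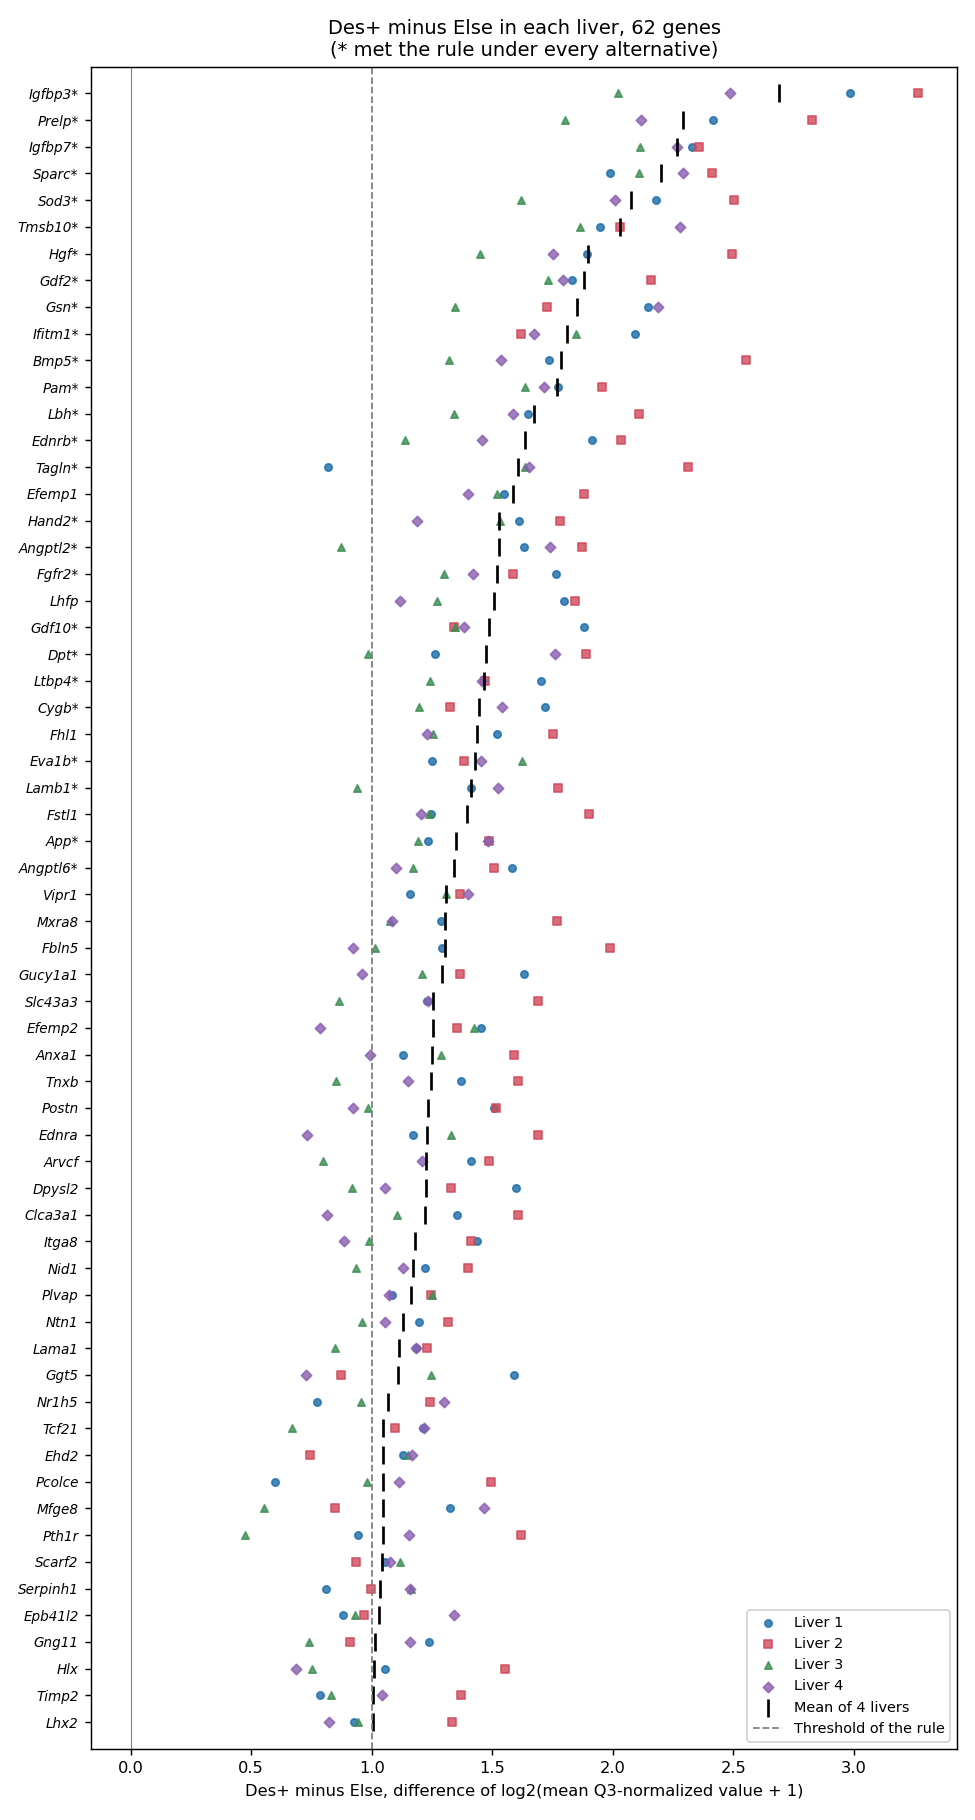
Difference between Des+ and Else segments for the 62 genes, on the scale of log2(mean Q3-normalized value + 1). Points are the 4 livers, black ticks their means and the dashed line the threshold of 1; every point lies above 0, and the highest mean is 2.69 for Igfbp3.

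Binding proteins of insulin-like growth factors and other secreted matrix-associated proteins led the group. Igfbp3, a circulating and pericellular carrier of these factors, had mean values of 113, 139, 52.1 and 71.2 Q3-normalized units in the Des+ segments of livers 1 to 4 and of 13.4, 13.6, 12.1 and 11.9 in the Else segments, a difference of 2.69 ± 0.55 (SD, n = 4 livers). Its level in Des+ segments was highest in liver 2 and lowest in liver 3. Igfbp7, a related secreted protein, stood at 272, 210.2, 230.4 and 199 in Des+ and 53.3, 40.2, 52.5 and 40.6 in Else segments. The difference of 2.27 ± 0.11 was among the most even of the group across livers. Prelp, a leucine-rich proteoglycan of basement membranes and connective tissue, differed by 2.29 ± 0.44, and Sparc, a collagen-binding matricellular protein, by 2.20 ± 0.19. Sod3, the extracellular superoxide dismutase, differed by 2.08 ± 0.37.

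Also near the top were Tmsb10, which binds actin monomers (2.03 ± 0.18), and Gsn, the actin-severing protein gelsolin (1.85 ± 0.40). Ifitm1, an interferon-induced membrane protein, differed by 1.81 ± 0.21. Gsn rested on a median of 5 counts and stood at the floor of 1 count in 17.1% of the Des+ segments. Pam, which amidates secreted peptides, differed by 1.77 ± 0.14, and Lbh, a transcriptional cofactor, by 1.67 ± 0.32.

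Ligands and modulators of the BMP and TGF-beta pathway formed a second set. BMPs signal through serine-threonine kinase receptors to SMAD proteins, and in the liver they act on iron handling, on sinusoidal endothelium and on stellate cells themselves. Of the 61 pathway genes listed, 13 were in the table and 5 were among the 62. For this list and those below, the share over the whole table is 62 of 607 genes. Gdf2 encodes BMP9, a ligand of endothelial receptors, and stood at 26.4, 27.9, 25.9 and 24.4 in the Des+ segments of livers 1 to 4 against 6.70, 5.47, 7.10 and 6.32 in the Else segments. Bmp5, a secreted BMP of the subgroup that includes Bmp6 and Bmp7, reached 23.7, 35.5, 18.5 and 19.5 in Des+ segments and 6.41, 5.22, 6.82 and 6.06 in Else segments. Its difference of 1.79 ± 0.54 was largest in liver 2. Gdf10, a ligand close to Bmp3, differed by 1.49 ± 0.26. Ltbp4, which tethers latent TGF-beta to elastic fibres, differed by 1.47 ± 0.19, and Fstl1, a follistatin-like secreted glycoprotein, by 1.40 ± 0.34.

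Gdf10 and Gdf2 are also neighbours in the genome. In RefSeq (GRCm38.p6) both lie on the plus strand of chromosome 14, with starts 17452 bases apart and no other listed start between them, and this was the only pair among the 62 genes with starts within 100000 bases. The 250 bases before each start are shown to set the neighbours side by side (Gdf10 chr14:33923337-33923586, Gdf2 chr14:33940789-33941038, both plus strand). Capitals, here and in the sequences that follow, mark CAGCTG or CATCTG (E-boxes, bound by basic helix-loop-helix factors such as Hand2 and Tcf21), TAATTA (a core site of homeobox factors such as Lhx2) and TATAAA, each searched on both strands. In the printed sequences no motif overlapped another.
Gdf10: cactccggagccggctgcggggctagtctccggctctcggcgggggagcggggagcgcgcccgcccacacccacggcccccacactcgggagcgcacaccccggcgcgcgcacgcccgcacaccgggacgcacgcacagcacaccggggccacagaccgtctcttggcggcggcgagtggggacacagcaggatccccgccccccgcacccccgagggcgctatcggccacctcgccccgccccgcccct
Gdf2: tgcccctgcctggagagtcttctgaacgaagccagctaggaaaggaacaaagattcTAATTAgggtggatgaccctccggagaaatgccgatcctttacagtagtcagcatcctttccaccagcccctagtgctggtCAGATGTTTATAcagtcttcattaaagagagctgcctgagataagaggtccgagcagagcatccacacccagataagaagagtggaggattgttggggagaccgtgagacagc
The Gdf10 sequence had a GC content of 78.8% and held none of the 4 motifs. The Gdf2 sequence had a GC content of 50.4% and held 3 of them once each, with CATCTG next to the TATAAA site, both read on the minus strand, and the TAATTA site further from the start.

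Such promoters were listed for 52 of the 62 genes (71 start sites). CAGCTG was in 19.7% of these windows, against 17.0% for all genes of the table and 13.0% for all 32851 listed windows. For CATCTG the shares were 12.7%, 11% and 14.4%, for TAATTA 4.23%, 1.30% and 4.84%, and for TATAAA 7.04%, 8.44% and 12.4%. The CArG box, the site of serum response factor, was found in 1 window (Fhl1). A match is a run of letters, not a measured binding site.

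Angptl2 and Angptl6, secreted relatives of the angiopoietins, were both in the group and were the only 2 of 14 listed genes of that family in the table. Angptl2 had means of 19.3, 21.9, 9.81 and 20.0 in the Des+ segments of livers 1 to 4, with liver 3 far below the others, and of 5.55, 5.27, 4.91 and 5.28 in Else segments (1.53 ± 0.45). For Angptl6 the means were 26.3, 20.9, 19.8 and 19.7 and 8.12, 6.71, 8.24 and 8.63 (1.34 ± 0.24), with no overlap between the segment types. The promoter of Angptl2 is shown because it held CAGCTG 3 times (chr2:33215711-33215960, plus strand).
Angptl2: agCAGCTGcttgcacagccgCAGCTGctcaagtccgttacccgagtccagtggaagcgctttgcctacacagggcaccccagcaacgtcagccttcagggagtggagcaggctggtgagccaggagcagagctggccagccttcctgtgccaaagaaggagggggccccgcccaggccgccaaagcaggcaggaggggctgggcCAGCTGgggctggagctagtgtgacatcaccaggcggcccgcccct
The first base of these sites lay 248, 230 and 46 bases before the start.

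App and Anxa1 showed contrasting precision. App, the amyloid precursor protein, a widely expressed membrane protein, had means of 78.6, 81.5, 89.9 and 94.5 in Des+ segments and 32.8, 28.5, 38.8 and 33.2 in Else segments, a difference of 1.35 ± 0.16 with a median of 21 counts and no Des+ segment at the floor. It was the only one of the 4 genes of the App family and its processing in the table to enter the group. Anxa1, a calcium-dependent phospholipid-binding protein with anti-inflammatory actions, stood at 11.04, 16.2, 14.5 and 9.05 in Des+ and 4.50, 4.70, 5.34 and 4.05 in Else segments (1.25 ± 0.26). It had a median of 3 counts, and 29.3% of the Des+ segments were at the floor. It was the only one of 6 annexin and S100 genes in the table to be among the 62.

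**Figure D2:**
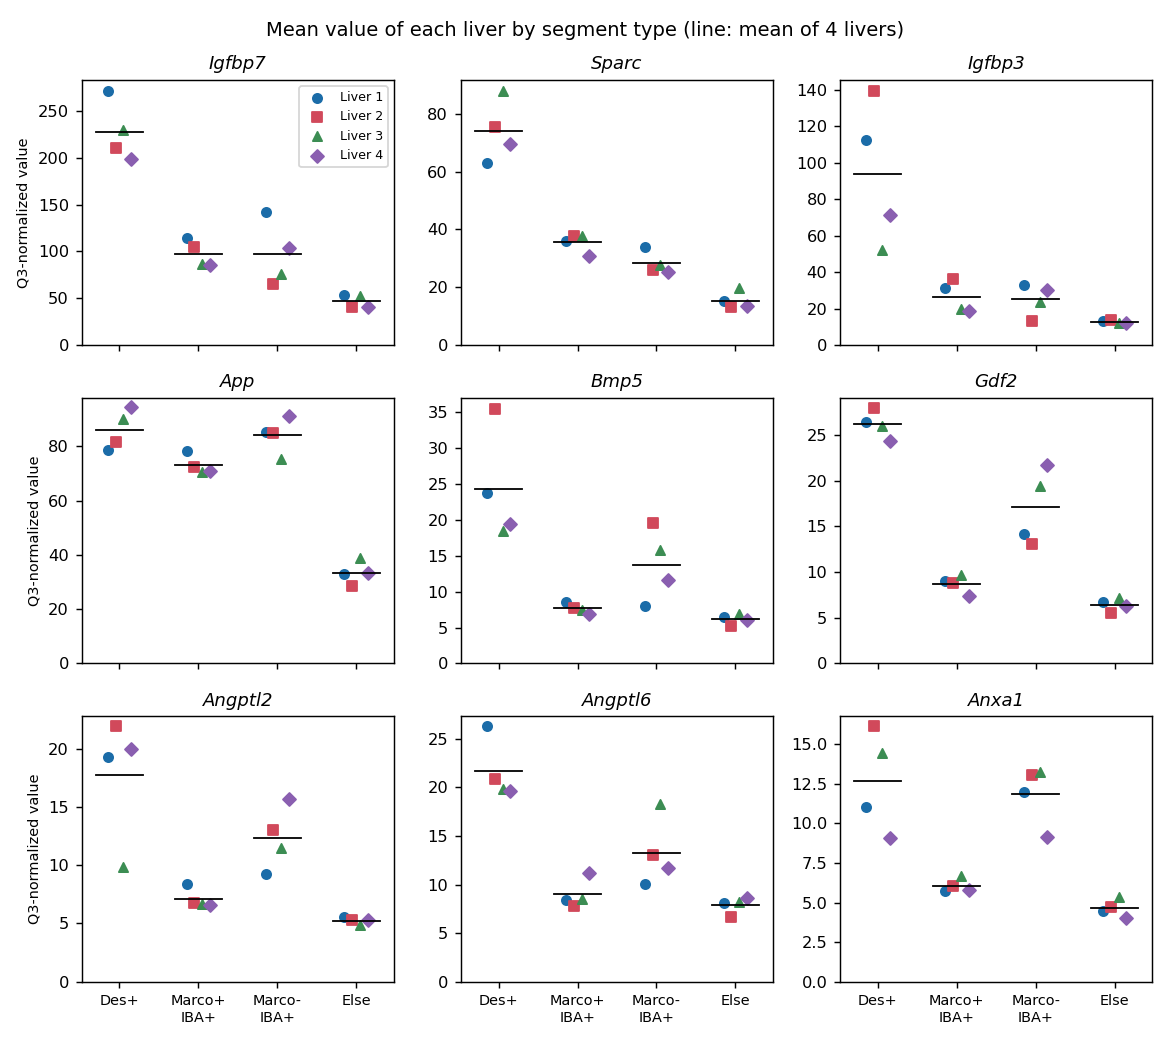
Mean Q3-normalized value of each liver (linear scale) in the 4 segment types for 9 of the genes. Each point is 1 liver and each line the mean of 4 livers; Des+ lies above Else in every liver, while the levels of App in Des+ and both macrophage segment types lie close.

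Growth factors and receptors of vasoactive or trophic signals gave 7 of the 13 genes of their list in the table. Hgf, the mitogen of hepatocytes that stellate cells secrete, differed by 1.90 ± 0.44 between Des+ and Else segments. The endothelin receptors Ednrb (1.64 ± 0.41) and Ednra (1.23 ± 0.40) were both in the group. Vipr1, a receptor of vasoactive intestinal peptide (1.31 ± 0.11), varied little between livers, whereas Pth1r, the parathyroid hormone receptor (1.05 ± 0.48), ran from 0.47 in liver 3 to 1.62 in liver 2. Fgfr2, the fibroblast growth factor receptor, differed by 1.52 ± 0.20. Gucy1a1, a subunit of the nitric oxide-sensing guanylate cyclase (1.29 ± 0.28), was the only one of 19 listed cyclic nucleotide and contractile genes in the table to be in the group.

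Proteins of basement membranes and elastic fibres gave the largest set, 12 of the 22 listed genes in the table. This list also had the most genes in the table. They included the laminin chains Lamb1 (1.41 ± 0.35) and Lama1 (1.11 ± 0.18) and the laminin-binding Nid1 (1.17 ± 0.19). The fibulin family, which organises elastic fibres, was present with Efemp1 (1.59 ± 0.21), Fbln5 (1.30 ± 0.48) and Efemp2 (1.25 ± 0.32). Tnxb, Postn, Dpt and Mfge8, along with Sparc and Prelp, made up the rest, at differences between 1.05 (Mfge8) and 2.29 (Prelp). Collagen processing was represented by Serpinh1, a collagen chaperone (1.03 ± 0.17), and Pcolce, an enhancer of procollagen cleavage (1.05 ± 0.37), and matrix turnover by the inhibitor Timp2 (1.01 ± 0.27). These 3 were the members among 11 protease and protease inhibitor genes in the table. Itga8, an integrin chain that binds matrix ligands (1.18 ± 0.29), was 1 of 15 adhesion receptors.

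Transcription factors that mark stellate cells or their precursors were 4 of the 16 listed factors in the table. Hand2, a basic helix-loop-helix factor, had means of 18.5, 17.4, 18.1 and 12.0 in Des+ and 5.38, 4.34, 5.61 and 4.72 in Else segments. Tcf21, of the same class, differed by 1.05 ± 0.26, the LIM homeobox factor Lhx2 by 1.01 ± 0.22 and the bile acid receptor relative Nr1h5 by 1.07 ± 0.25. The promoter of Hand2 is printed since Hand2 encodes an E-box factor and its own window held CATCTG, 246 bases before the start, and TAATTA, 175 bases before it (chr8:57320733-57320982, plus strand).
Hand2: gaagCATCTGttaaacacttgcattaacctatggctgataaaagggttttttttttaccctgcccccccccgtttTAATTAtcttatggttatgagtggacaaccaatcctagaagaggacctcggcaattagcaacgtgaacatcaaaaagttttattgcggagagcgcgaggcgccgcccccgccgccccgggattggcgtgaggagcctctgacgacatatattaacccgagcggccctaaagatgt
The 4 listed genes of the WNT and Notch pathways in the table, the 3 immediate early genes and the 3 genes of retinoid and lipid handling included none of the 62. Tagln, an actin-binding protein of smooth muscle and activated stellate cells, differed by 1.60 ± 0.61, the widest spread between livers in the group, with 0.82 in liver 1 and 2.31 in liver 2. Of the remaining genes, Cygb, a globin of stellate cells (1.44 ± 0.23), Plvap, a protein of endothelial diaphragms (1.16 ± 0.10), and Hlx, Ntn1, Fhl1, Lhfp, Eva1b, Mxra8, Slc43a3, Arvcf, Dpysl2, Clca3a1, Ggt5, Ehd2, Scarf2, Epb41l2 and Gng11 ranged from 1.01 (Hlx) to 1.51 (Lhfp).

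The make-up of the group depended on the treatment of low counts. With 1 count subtracted from every recovered count, 30 of the 62 genes still differed by at least 1, and the median over all genes moved from 0.08 to -0.50. After re-centring every segment on its own median, 31 did so and the median over all genes was -0.21. Under every alternative tried, 26 genes met the rule, among them the 10 with the highest differences and Bmp5, Angptl2, Angptl6 and App, but not Anxa1.

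On the values as deposited, the macrophage segments lay between Des+ and Else segments for most of the genes. For Marco-IBA+ segments this place cannot be told apart from the count floor. In them 1 count was worth a median of 8.69 units, against 0.069 in Else segments, and the genes of the group had a median of 1 count. The comparisons of Des+ with Marco-IBA+ segments below share this limit. Means were highest in Des+ segments for 56 genes and in Marco-IBA+ segments for 6 (Ednra, Dpysl2, Ggt5, Epb41l2, Hlx and Timp2). Of the 6, only Epb41l2 (Des+ minus Marco-IBA+ -0.68 ± 0.19) and Timp2 (-0.52 ± 0.35) were lower in Des+ in every liver. Des+ was the higher in 3 livers for Ednra (-0.05 ± 0.72) and in 1 for Dpysl2 (-0.38 ± 0.30). For Ggt5 (-0.21 ± 0.51) and Hlx (-0.05 ± 0.26) it was the higher in 2 livers. Des+ exceeded Marco+IBA+ in all 4 livers for 57 genes, with a median difference of 1.05 (0.10 over the 607 genes), and Marco-IBA+ in all 4 livers for 31, with a median of 0.44 (-0.13 over the 607 genes). These comparisons share the Des+ values that chose the genes and are not tested. Their counts are given without a share over the 607 genes, so they show no excess over the table. The levels of App in stellate and macrophage segments lay close, with 78.3, 72.4, 70.4 and 70.9 in the Marco+IBA+ segments of livers 1 to 4 and 85.2, 84.7, 75.4 and 91.0 in the Marco-IBA+ segments. Timp2 and Epb41l2 were lower in Des+ than in Marco+IBA+ segments (log2 differences of -0.27 ± 0.16 and -0.22 ± 0.24). Fgfr2 was the opposite case, with 9.37, 10.9, 10.3 and 8.67 in Marco+IBA+ segments, 9.97, 11.3, 12.5 and 10.6 in Else segments and 36.3, 35.8, 32.2 and 30.1 in Des+ segments.

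To follow what the transferred macrophages do to stellate cells, the study set Des+ segments of MARCO-rich ROIs against those of MARCO-poor ones, with and without the transfer. The ROI contrast was not used to choose the genes. Of the 62 genes, 53 had lower values in MarcoHi than in MarcoLo ROIs, as did 47% of the 607, and the median difference was -0.32 against 0.02 over all genes. After adjustment over all 607 genes by limma, 5 of the 62 were lower (3.79% of all genes) and 1 was higher (0.659% of all genes). At an unadjusted p below 0.05 there were 27 lower (11.5% of all genes) and 1 higher (6.59%). In all 4 livers, 24 genes were lower (12.9% of all genes) and 0 were higher (9.88%), and for 8 genes the 4 MarcoHi means lay below the 4 MarcoLo means (4.94%). Without liver 1, 4 genes passed in place of 6 (Fgfr2, Gdf10, Tagln and Cygb), without liver 3 it was 3 (Arvcf, Efemp1 and Pth1r), and without liver 2 or 4 it was 0. The median difference was -0.16 without liver 4, with 46 genes lower, and -0.48 without liver 2.

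**Figure D3:**
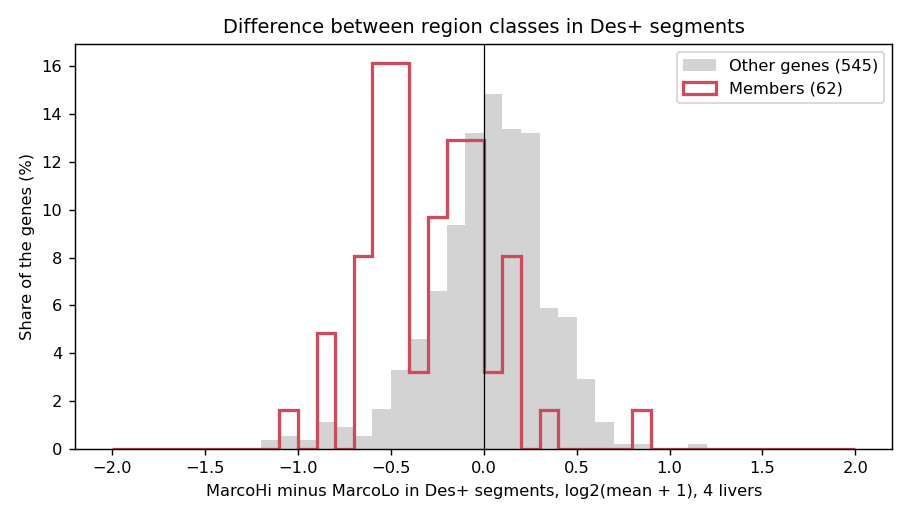
Share of genes (%) by the difference between MarcoHi and MarcoLo ROIs in Des+ segments, in log2(mean + 1), averaged over 4 livers. The 62 genes (red outline) centre on -0.32 and the other genes of the table (grey) near 0.

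Among the 62, the largest difference was that of Fgfr2. Its means in the MarcoHi ROIs of livers 1 to 4 were 26.5, 26.4, 19.7 and 23.4 and in the MarcoLo ROIs 46.1, 54.8, 54.1 and 43.5. The highest MarcoHi mean lay below the lowest MarcoLo mean, and the difference was -1.02 (SE 0.21, adjusted p = 0.00136). Over single segments, the median was 18.8 in the 25 MarcoHi and 51.7 in the 16 MarcoLo segments, on medians of 5 and 15 counts. Over the alternatives the difference stayed below 0, with an adjusted p from 4.60e-05 to 0.222. Without liver 2, 3 or 4 its adjusted p was 0.222, 0.0583 and 0.197. Its promoter held none of the 4 motifs and is shown as that of the gene with the largest difference (chr7:130266809-130267058, minus strand).
Fgfr2: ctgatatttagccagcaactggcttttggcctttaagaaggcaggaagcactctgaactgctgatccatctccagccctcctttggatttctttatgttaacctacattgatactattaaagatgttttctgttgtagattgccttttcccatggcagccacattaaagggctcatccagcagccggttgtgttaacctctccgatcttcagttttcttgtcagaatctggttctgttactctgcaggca

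Gdf10 was lower in the MarcoHi ROIs of all 4 livers. It rested on medians of 3 counts in MarcoHi and 7 in MarcoLo segments, with 9 Des+ segments at 1 count. It had means of 22.3, 12.2, 7.53 and 11.1 in MarcoHi and 25.3, 18.3, 30.5 and 22.3 in MarcoLo ROIs, a difference of -0.89 (SE 0.23, adjusted p = 0.0110), and the MarcoHi mean of liver 1 lay within the range of the MarcoLo means. Without liver 3 the difference was -0.46, with an adjusted p of 0.526, and over the alternatives the adjusted p ran from 4.97e-04 to 0.526. Its neighbour Gdf2 differed by -0.59 (SE 0.21, adjusted p = 0.0934), with lower values in 3 of 4 livers. Arvcf, a catenin that binds cadherins, was lower in all 4 livers, with means of 12.9, 14.1, 10.2 and 10.9 against 25.8, 24.1, 17.1 and 24.2 and a difference of -0.87 (SE 0.21, adjusted p = 0.00725), with an adjusted p from 7.20e-04 to 0.335 over the alternatives. Arvcf rested on medians of 2 counts in MarcoHi and 7.5 in MarcoLo segments, with 9 Des+ segments at 1 count.

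The elastic fibre genes Efemp1 and Efemp2 moved the same way. Efemp1 had means of 8.24, 10.6, 10.8 and 9.36 in MarcoHi and 17.6, 25.2, 18.2 and 13.7 in MarcoLo ROIs, without overlap, and differed by -0.85 (SE 0.21, adjusted p = 0.00772). Efemp2 stood at 10.9, 11.3, 11.8 and 7.34 and 21.6, 14.3, 23.0 and 11.2 and differed by -0.67 (SE 0.20, adjusted p = 0.0468), close to the threshold. Over the alternatives their adjusted p ran from 0.00133 to 0.260 and from 0.0397 to 0.391. Both genes rested on medians of 2 counts in MarcoHi and 6 in MarcoLo segments, with 11 and 9 Des+ segments at 1 count. In their list of basement membrane and elastic fibre proteins, 2 of 22 genes in the table passed the test, both lower (3.79% of all genes). Lower values were found for 16 (47% of all genes), with a median of -0.12.

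Tagln, the only gene of the smooth muscle list in the table, was the only one of the 62 to pass the test in the other direction. Its means were 16.1, 50.7, 40.4 and 20.4 in MarcoHi and 9.63, 16.7, 13.2 and 26.1 in MarcoLo ROIs of livers 1 to 4, and liver 4 went against the other 3. The difference was 0.86 (SE 0.24, adjusted p = 0.0199), with an SD of 0.90 between livers. Without liver 2 it was 0.39 (adjusted p = 0.492), and over the alternatives the adjusted p ran from 7.20e-04 to 0.492.

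**Figure D4:**
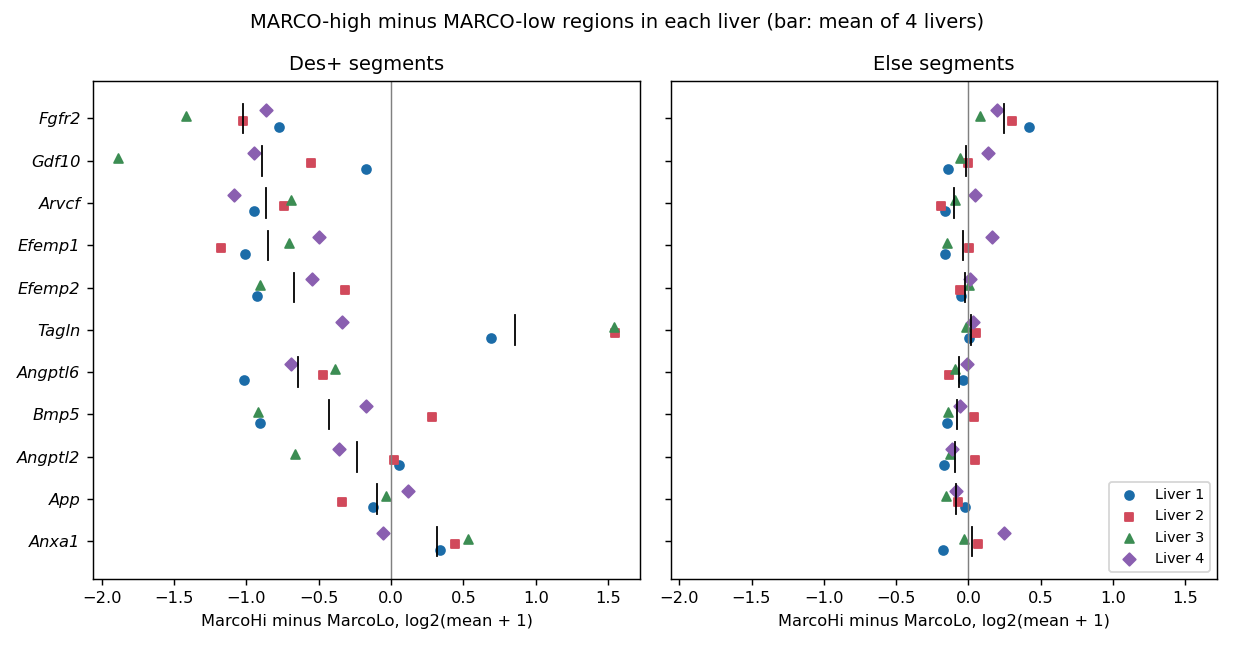
Difference between MarcoHi and MarcoLo ROIs in each liver, in log2(mean + 1), for the 6 genes past the threshold in Des+ segments and for Angptl6, Bmp5, Angptl2, App and Anxa1. The left panel shows Des+ and the right panel Else segments, bars are means of 4 livers; Fgfr2 lies below 0 in every liver on the left and above 0 in every liver on the right.

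Angptl6, Bmp5, Angptl2, App and Anxa1 did not pass the test. Angptl6 came nearest, at -0.64 (SE 0.21, adjusted p = 0.0729), lower in all 4 livers, with means of 17.1, 18.4, 17.7 and 16.1 in MarcoHi and 35.6, 25.9, 23.5 and 26.7 in MarcoLo ROIs that did not overlap. Its adjusted p ran from 0.0157 to 0.540 over 16 alternatives and passed the threshold in 4 of them. Bmp5 differed by -0.43 (SE 0.21, adjusted p = 0.258) and Angptl2 by -0.24 (SE 0.21, adjusted p = 0.615). For App the difference was -0.10 (SE 0.21, adjusted p = 0.870) and for Anxa1 0.31 (SE 0.21, adjusted p = 0.453). Igfbp7, with a median of 62 counts in a Des+ segment, had means of 215, 174, 198 and 176 in MarcoHi and 329, 282, 288 and 246 in MarcoLo ROIs. It was lower in every liver and differed by -0.58 (SE 0.20, adjusted p = 0.0934).

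Several other measures moved with this contrast. Des+ segments of MarcoHi ROIs had a median total of 3089 counts, those of MarcoLo ROIs 4602.5, and 20.4% against 9.39% of the genes stood at 1 count. Of the stellate cell marker list, 16 of 16 genes in the table had lower values in MarcoHi ROIs (47% of all genes), with a median of -0.42. Of these, 3 passed the test (3.79% of all genes were lower and passed), none of them among the 62. Summed, the list stood at 516, 663, 479.6 and 481 in the MarcoHi and at 916, 889, 839 and 799 in the MarcoLo ROIs of livers 1 to 4, and 0 of its genes were at 0. Marco, the macrophage gene by whose protein the ROIs were chosen, had a median of 15.6 in the Des+ segments of MarcoHi and 7.64 in those of MarcoLo ROIs. The part of depth, of stellate cell content and of macrophage signal in the result was not tested. In the other lists, 1 of 13 BMP and TGF-beta genes passed the test (Gdf10, 9 lower) and 0 of 13 growth factor genes (10 lower). So did 0 of 16 transcription factors (12 lower), 0 of 11 protease genes (5 lower) and 0 of 15 adhesion receptors (7 lower). Among all genes of the table, 47% were lower and 3.79% were lower past the test.

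The 2 label pairs gave medians of the same sign. In the livers labelled treated CCl4 the median difference of the 62 genes between MarcoHi and MarcoLo ROIs was -0.29 (0.09 over all genes), 47 genes had lower values (41% of all genes), and Fgfr2 passed the test at -1.10 (SE 0.29, adjusted p = 0.0330), against 1.81% of all genes lower. Without liver 1 or liver 3, a single liver carries this label, and its Fgfr2 difference was -1.41 (liver 3) or -0.78 (liver 1). Without liver 2 or 4, 0 of the 62 genes passed. In the livers labelled control the median was -0.33, 53 genes had lower values (56.8% of all genes) and 0 passed (0% of all genes), with 13 of the 62 lower at an unadjusted p below 0.05 (8.07% of all genes). Without liver 4 this median rested on liver 2 alone and was -0.12, with 37 genes lower and 25 higher. Without liver 2 it rested on liver 4 alone and was -0.54. Over all genes 64 reached that p in the control label pair, and edgeR and DESeq2 also called 0 of the 62. The difference between the pairs passed the test for 0 of the 607 genes by limma, edgeR or DESeq2 (0% of all genes), with 3 of the 62 at an unadjusted p below 0.05 (6.26% of all genes), the lowest adjusted p being 0.102 for Ehd2. When the Des+ segments of the pairs were compared directly, 0 of the 62 genes passed by limma, edgeR or DESeq2 (0% of all genes by limma), with 7 at an unadjusted p below 0.05 (6.1% of all genes), 33 with lower values in the livers labelled treated CCl4 (50.2% of all genes) and a lowest adjusted p of 0.737.

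In the Else segments, the same ROI contrast gave small differences on deep counts. The median of the 62 genes was -0.08, 54 had lower values (53.5% of all genes), 3 were lower after adjustment (3.29% of all genes) and 1 was higher (1.81%). Fgfr2 was the higher one, at 0.25 (SE 0.06, adjusted p = 0.0360), with 0.42, 0.30, 0.08 and 0.20 in livers 1 to 4, all above 0. The lower ones were Igfbp7 at -0.18 (SE 0.04, adjusted p = 0.0372), Hgf at -0.17 (SE 0.04, adjusted p = 0.0360) and Slc43a3, a membrane transporter, at -0.16 (SE 0.04, adjusted p = 0.0484). Without liver 1, or with the ROI of liver 4 that has no class in its library name left out, 0 of the 62 genes passed. Without liver 2, Igfbp7 and Tmsb10 passed, without liver 3 Fgfr2 and without liver 4 Hand2.

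Whether the ROI contrast differs between Des+ and Else segments was tested within each liver. Of the 62 genes, 4 differed, all with a lower value in Des+ than in Else (1.65% of all genes), and 49 had negative values (48.3% of all genes). Fgfr2 differed by -1.27 (SE 0.20, adjusted p = 3.69e-04), being lower in the MarcoHi ROIs in Des+ segments and higher in Else segments in every liver. Its adjusted p ran from 2.54e-06 to 0.0896 over the alternatives and exceeded the threshold only with 1 count subtracted. Gdf10 differed by -0.87 (SE 0.23, adjusted p = 0.0484), Efemp1 by -0.81 (SE 0.21, adjusted p = 0.0320) and Arvcf by -0.77 (SE 0.21, adjusted p = 0.0484). Without liver 1, Fgfr2, Gdf10 and Tagln passed, without liver 2 only Fgfr2 of the 62, without liver 3 Fgfr2 and Efemp1, and without liver 4 Fgfr2 and Tagln. In the Marco+IBA+ segments, 0 of the 62 genes passed in the ROI contrast by limma (0.494% of all genes in either direction), with 9 at an unadjusted p below 0.05 (10.5% of all genes), 1 by edgeR and 0 by DESeq2. Gdf10 had lower values there in each liver, with -0.72, -0.72, -0.73 and -0.59, and a mean of -0.69 (SE 0.12, adjusted p = 0.0899). Fgfr2 had values of -1.24, -0.12, -0.40 and -0.12 and Tagln of 0.22, 0.41, 0.43 and 0.62.

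The 2 macrophage segment types were compared because neither entered the rule. Both ROI classes were averaged together, and they were not balanced in livers 1 and 2. Liver 2 had 2 Marco-IBA+ segments, both MarcoLo, against 8 MarcoHi and 6 MarcoLo Marco+IBA+ segments. Liver 1 had 1 MarcoHi and 5 MarcoLo Marco-IBA+ segments, against 5 and 7 Marco+IBA+ segments. Taken as deposited, 37 of the 62 genes were lower in Marco+IBA+ than in Marco-IBA+ segments (29.2% of all genes) and 0 were higher (4.61%), with a median of -0.59 against -0.26 over all genes and 55 with lower values (69.2% of all genes). Gsn differed most, at -1.35 (SE 0.21, adjusted p = 0.00135), followed by Ednra (-1.29), Efemp1 (-1.10), Tnxb (-1.05), Dpt (-1.05), Ggt5 (-0.95), Gdf10 (-0.94), Nr1h5 (-0.91), Itga8 (-0.91) and Pth1r (-0.90). The Marco-IBA+ segments were the shallowest of the study. In them 1 count was worth a median of 8.69 units, 47.5% of the genes stood at 1 count, and the 62 genes had a median of 1 count against 5 in Marco+IBA+ segments. With 1 count subtracted, the median turned to 0.85 (0.87 over all genes), 0 of the 62 genes passed and 56 had higher values in Marco+IBA+ segments, as did 574 of all 607 genes. edgeR on recovered counts called 12 of the 62 genes, all lower, and over all genes 34 lower and 43 higher. DESeq2 gave an adjusted p for only 10 of the 62 genes and called 0 of them. Leaving out liver 2 or 3 gave 24 and 19. Of the 10 named genes, only Gsn stayed below 0 with it subtracted (-0.85, adjusted p = 0.153).

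**Figure D5:**
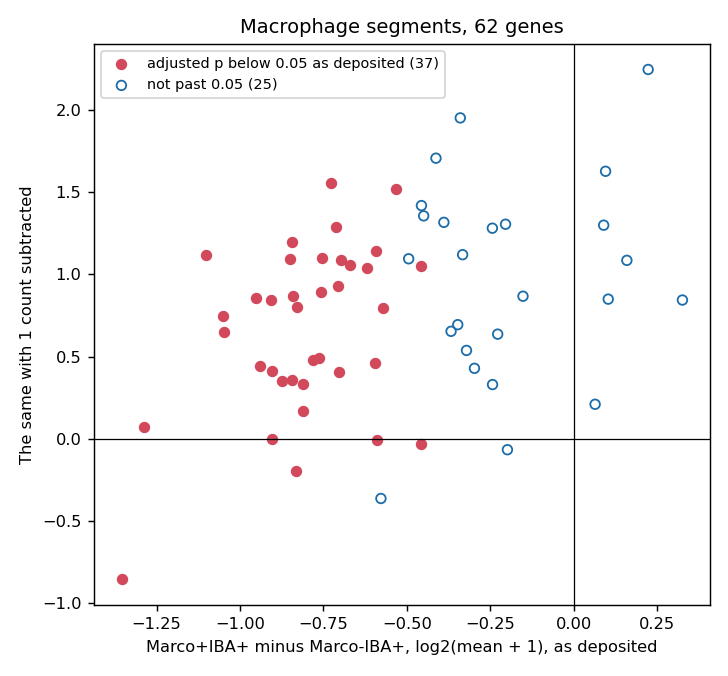
Difference between Marco+IBA+ and Marco-IBA+ segments for the 62 genes, in log2(mean + 1), as deposited (horizontal) and after subtraction of 1 count from every recovered count (vertical). Filled points passed the test as deposited (37) and none passed after the subtraction, when 56 points lie above 0.

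Within the Des+ segments, the better counted genes varied together only in part. For the 9 genes with a median of at least 10 counts, Spearman correlations over the 41 Des+ segments ran from -0.07 (Igfbp3 with Tmsb10) to 0.60 (Igfbp7 with Pam). Igfbp3 with Prelp (0.53), Prelp with Sod3 (0.49) and Igfbp3 with Sod3 (0.47) followed. These are descriptions over segments that share livers and the normalization, and the correlation of the same genes with the total count of a segment ran from -0.23 (Sod3) to 0.43 (App).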

How the data were processed

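Formalin-fixed liver sections were profiled by GeoMx with a whole-transcriptome mouse probe set. The authors demultiplexed reads (bcl2fastq 2.20.0.422), removed duplicates by molecular identifier, filtered segments and genes, kept stellate cell genes from single-cell data and scaled each segment to its upper quartile (Q3), and the deposited signal values are on that scale. The processing notes name mm10. From these values whole counts were recovered for all 96513 values (relative tolerance 1e-06), and 0 sample columns were left unused. Segments were averaged per liver and ROI class, and log2(mean + 1) was fitted with limma 3.58.1 (R 4.3.3), liver as a block, with Benjamini-Hochberg adjustment over 607 genes and a threshold of 0.05. The block is the animal: segments with the same liver number come from the same mouse. Each fit of the ROI contrast over 8 means had 2 residual degrees of freedom before moderation. limma moderates the variance of each gene towards that of all genes, so SEs and p-values rest largely on the shared spread and less on a gene's own spread between the 4 livers (in the Des+ contrast the SE ran from 0.204 to 0.251 over the 62 genes, the SD between livers from 0.0634 to 1.09). Counting error is largest in Des+ and Marco-IBA+ segments. Alternatives were edgeR 4.0.16, DESeq2 1.42.0, a mixed model over segments (lme4 1.1.37), other pseudocounts (0, 5), a mean count minimum of 5, other averages, re-centring, subtraction of 1 count and leaving out each liver. The ROI fit of Des+ segments was also run on counts simulated without differences between livers, so that run cannot show how the fits handle such differences. Genes named with values were Angptl2, Angptl6, Bmp5, Anxa1 and App, the 10 with the highest Des+ minus Else difference, those past a threshold (up to 10 per comparison), the genes at the edge of the rule and those on the lists. The 62 genes and the lists were chosen with earlier results of these data known.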

Additional observations from a re-analysis of the deposited data

Results flagged for a closer look

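Of 124 sets of 4 liver values (the 62 genes, Des+ minus Else and MarcoHi minus MarcoLo in Des+ segments), 8 held 1 liver far from the others by Dixon's criterion, where chance marks about 1 in 20 sets. For Des+ minus Else, Gdf10 was at 1.88 in liver 1 and between 1.34 and 1.38 in the others. Fstl1 was at 1.90 in liver 2 against 1.20 to 1.25. Efemp2 was at 0.784 in liver 4 against 1.35 to 1.45, Lama1 at 0.848 in liver 3 against 1.18 to 1.23, and Ehd2 at 0.745 in liver 2 against 1.13 to 1.17. For MarcoHi minus MarcoLo in Des+ segments, Lamb1 was at -0.0916 in liver 2 against -0.64 to -0.58, Nid1 at 0.357 in liver 2 against -0.53 to -0.44, and Serpinh1 at -0.67 in liver 4 against -0.28 to -0.25.

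The MarcoHi minus MarcoLo difference itself differed between Des+ and Else segments for Fgfr2 (-1.27), Gdf10 (-0.87), Efemp1 (-0.81) and Arvcf (-0.77), each the Des+ difference minus the Else difference (log2 scale, limma, n = 4 livers). Only for Fgfr2 did the 2 segment types move in opposite directions in every liver.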

How the results depend on the processing

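Counts below are of the 62 genes unless stated. The rule was met by 30 genes with a pseudocount of 5, 30 with 1 count subtracted, 31 with re-centring and 41 with a mean count minimum of 5, in place of 62, and by 57 to 69 genes when 1 liver was left out. In the MarcoHi minus MarcoLo contrast of Des+ segments (6 past the threshold), the number was 10 with the count minimum, 12 with means of log2 values, 2 with medians, 2 with re-centring, 0 with 1 count subtracted, 2 by DESeq2 (which gave an adjusted p for 23 of the 62) and 0 to 4 when 1 liver was left out. The same contrast in the livers labelled treated CCl4 (1 gene) gave 2 with a pseudocount of 0, 8 with the count minimum, 4 with means of log2 values, 0 with medians, 0 with 1 count subtracted, 0 by DESeq2, 6 by the mixed model and 0 without liver 2 or 4. Without liver 1 or 3 it rests on a single liver. Without the replicate block these 2 contrasts gave 3 and 0 genes, and the Else contrast gave 0 in place of 4; the block changed no other count by over 1.5 times. The Else contrast also gave 0 with a pseudocount of 0, 0 with re-centring, 0 without the ROI that has no class in its library name, 2 by edgeR, 1 by DESeq2 and 0 to 2 when 1 liver was left out. Marco+IBA+ ROIs gave 1 by edgeR and 2 by the mixed model in place of 0. The Des+ minus Else difference of the contrast (4 genes) gave 2 with a pseudocount of 0, 2 with medians, 1 with re-centring, 0 with 1 count subtracted, 1 without the unclassed ROI and 1 to 3 when 1 liver was left out. For Marco+IBA+ minus Marco-IBA+ (37 genes), the count minimum gave 3, subtraction of 1 count 0, edgeR 12, DESeq2 0 (10 of the 62 tested) and leaving out 1 liver 19 to 42. With 1 count subtracted that difference turned above 0 for Ednra (0.0722), Efemp1 (1.12), Tnxb (0.75), Dpt (0.65), Ggt5 (0.86), Gdf10 (0.44), Nr1h5 (0.84), Itga8 (0.41) and Pth1r (0.0017). Beyond what the count minimum and the left-out livers do by their construction, the cause of these changes was not tested. The control label, label difference and direct label contrasts gave 0 of the 62 genes under every alternative run that kept 2 livers in each label. Over all 607 genes, the number past the threshold ran from 0 to 43 in Des+ segments, 0 to 38 in the livers labelled treated CCl4, 0 to 78 in Else, 0 to 31 in Marco+IBA+, 1 to 306 between the macrophage segments and 0 to 22 for the Des+ minus Else difference. Depth limits the genes with under 5 counts in a Des+ segment, 32 of the 62.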
